A study of Mus musculus with 7 samples.

Results

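H3K27me3, the trimethyl mark on histone H3 that Polycomb repressive complex 2 (PRC2) writes at silent genes, formed 704 short called peaks at gene ends that were found with and without the ubiquitin ligases Ring1a and Ring1b. They are the peaks of the control list that were under 8 kb wide, shared at least 1 bp with a peak of the Ring1a/b double-knockout (2KO) list, and lay within 1 kb of the start or end coordinate of a protein-coding gene. They made up 704 of 3631 control peaks (19.4%). The peaks were chosen by their control width and by their overlap with the 2KO list, so both are descriptions here, and no test was made of them. Just inside the width limit lay the peaks at Cyp24a1 and Pfdn4 (7970 bp), Ikzf3 (7984 bp) and Vstm2b (7995 bp), and just outside it those at Epha10 and Maneal (8043 bp), Pax2 (8044 bp) and Htr7 (8070 bp).

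The cells were basal epidermal progenitors from the back skin of newborn mice (postnatal day 0), sorted by flow cytometry for EpCAM, Sca1 and high α6-integrin, with 400000 cells for each immunoprecipitation. Control mice, whose alleles are not described further, and Ring1a/b 2KO mice each had 2 labelled H3K27me3 libraries and 1 deposited list of peaks, so the spread between replicates could not be measured and no difference between the genotypes was tested. The Eed cKO libraries, in which Eed, a core PRC2 subunit, was conditionally deleted, and the input libraries were not analysed here. The sources used here do not give the driver of the deletion, the number of mice, the peak caller or its threshold. Titles of the 2KO libraries read H3K27me1, but their antibody is given as H3K27me3. The lists give positions only, so depth was unknown, and a longer or shorter peak is a difference in called length, not in the amount of the mark. Percentages are followed by 95% Wilson intervals, which cover counting error only.

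As background, PRC2 places H3K27me3 mainly at unmethylated CpG-rich gene starts of developmental and tissue-specific genes that a cell does not use. Ring1a and Ring1b, encoded by Ring1 and Rnf2, are the catalytic subunits of Polycomb repressive complex 1 (PRC1), which ubiquitinates histone H2A. PRC1 can be drawn to H3K27me3 by its Cbx subunits, and PRC2 can in turn recognise ubiquitinated H2A. In the epidermis Polycomb complexes are known to restrain genes of other lineages, among them Merkel cell genes. The loci of Ring1, Rnf2 and Eed held 0 control and 0 2KO peaks, and a list of H3K27me3 peaks does not show whether the 2 ligase genes were deleted. The marker genes of basal progenitors (Krt5, Krt14, Trp63, Itga6 and others) met 0 peaks of either list at their gene ends. The same held for the spinous and granular markers (Krt1, Krt10, Ivl, Lor, Flg and Sbsn) and for some markers of other cell types, such as Mitf and Pecam1. Other markers of those cell types did meet control peaks, among them Sox10 and Kit of melanocytes and Kdr and Sox17 of endothelium. So did the Merkel cell markers Atoh1, Sox2, Isl1, Krt8 and Krt18 and several dermal fibroblast and hair follicle markers. A missing peak is thus not particular to basal genes, and no difference between cell types was tested.

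Promoters were taken from RefSeq (build GRCm38.p6, which is mm10), from 250 bases before to 50 bases after the gene start. Shown are 6 that lay under a peak of both lists, from peaks longest in the 2KO list relative to control (Amer3, Gldn, Adgra1), from the shortest ones (Rgl3), and from those with the most similar edges (Col6a5, Grm6). They were the first 6 in that order that had a promoter entry and met this condition, and CpG content was not used to choose them. Sequences run 5′ to 3′ on the gene's strand, with each CG in capitals.
Amer3 promoter, chr1:34579443-34579742, plus strand: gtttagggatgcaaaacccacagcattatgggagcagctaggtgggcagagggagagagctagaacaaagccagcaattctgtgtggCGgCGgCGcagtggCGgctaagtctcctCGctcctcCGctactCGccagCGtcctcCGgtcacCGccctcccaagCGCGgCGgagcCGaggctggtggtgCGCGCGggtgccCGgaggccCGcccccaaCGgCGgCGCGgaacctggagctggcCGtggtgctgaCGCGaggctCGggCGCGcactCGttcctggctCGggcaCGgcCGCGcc
Gldn promoter, chr9:54286236-54286535, plus strand: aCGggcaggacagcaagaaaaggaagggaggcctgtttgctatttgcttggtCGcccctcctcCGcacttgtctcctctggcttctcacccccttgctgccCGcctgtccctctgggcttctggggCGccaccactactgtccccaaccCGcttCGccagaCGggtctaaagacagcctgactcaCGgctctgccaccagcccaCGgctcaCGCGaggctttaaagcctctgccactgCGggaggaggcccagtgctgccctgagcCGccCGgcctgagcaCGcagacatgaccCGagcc
Adgra1 promoter, chr7:139833924-139834223, plus strand: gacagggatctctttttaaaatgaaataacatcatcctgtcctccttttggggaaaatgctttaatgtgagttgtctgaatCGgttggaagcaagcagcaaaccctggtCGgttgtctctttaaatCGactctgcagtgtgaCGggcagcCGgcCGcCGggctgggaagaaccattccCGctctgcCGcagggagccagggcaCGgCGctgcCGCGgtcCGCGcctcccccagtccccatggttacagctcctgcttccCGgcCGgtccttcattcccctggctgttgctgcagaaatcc
Rgl3 promoter, chr9:21989404-21989703, minus strand: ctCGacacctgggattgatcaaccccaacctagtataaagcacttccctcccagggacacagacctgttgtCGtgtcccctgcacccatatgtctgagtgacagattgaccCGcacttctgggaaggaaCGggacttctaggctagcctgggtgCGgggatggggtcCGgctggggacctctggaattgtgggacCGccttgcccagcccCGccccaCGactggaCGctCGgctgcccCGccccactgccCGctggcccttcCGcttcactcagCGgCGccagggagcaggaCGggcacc
Col6a5 promoter, chr9:105960594-105960893, minus strand: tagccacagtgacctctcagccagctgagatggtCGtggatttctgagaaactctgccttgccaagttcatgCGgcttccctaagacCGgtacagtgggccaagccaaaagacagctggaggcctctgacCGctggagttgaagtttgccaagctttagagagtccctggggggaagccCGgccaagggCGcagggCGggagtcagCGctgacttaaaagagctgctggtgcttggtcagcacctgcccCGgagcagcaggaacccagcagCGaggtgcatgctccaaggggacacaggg
Grm6 promoter, chr11:50850435-50850734, plus strand: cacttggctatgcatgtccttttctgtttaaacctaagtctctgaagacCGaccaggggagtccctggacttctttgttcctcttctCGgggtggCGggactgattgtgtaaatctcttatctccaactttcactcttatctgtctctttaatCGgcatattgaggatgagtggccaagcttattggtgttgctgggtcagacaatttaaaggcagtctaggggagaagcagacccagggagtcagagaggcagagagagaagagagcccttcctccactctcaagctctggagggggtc
The Amer3 promoter holds 34 CG, the promoters of Gldn, Adgra1 and Rgl3 hold 17 each, that of Col6a5 holds 10 and that of Grm6 holds 4. The ratio of observed to expected CG runs from 0.93 at Amer3 to 0.22 at Grm6, where the expected number is that from the C and G content of the same 300 bases.

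To describe where in their genes these peaks lay, strands were taken from the promoter table, which held every gene of 524 of the 704 peaks. Of these 524, 494 (94.3%, 91.9 to 96.0) lay within 1 kb of a 5′ end and 30 (5.73%) at a 3′ end alone. The rule accepts either end. Narrow control peaks at gene ends with no 2KO peak had a like share at 5′ ends, 520 of 559 (93.0%, 90.6 to 94.9), and so had wide shared peaks at gene ends, 293 of 307 (95.4%, 92.5 to 97.3). An annotated start site lay inside the called interval for 435 of the 524 shared narrow peaks (83.0%, 79.6 to 86.0), for 374 of 559 control-only narrow peaks (66.9%, 62.9 to 70.7) and for 287 of 307 wide shared peaks (93.5%). The control-only peaks were shorter, with a median of 3781 bp against 4900 bp, and the part of width in this difference was not tested. Over all 704 peaks, 444 held a start site, and 407 of these (91.7%, 88.7 to 93.9) had a start site under a 2KO peak as well. The 444 include peaks outside the 524, at which some gene had no strand. Much of the 91.7% is set by the rule, which takes only control peaks that overlap a 2KO peak, and nothing is read from it.

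The peaks reached further into the gene than upstream of it. At the 442 peaks placed at 1 stranded 5′ end, the control peak extended a median of 1689.5 bp upstream and 3086 bp downstream of the gene start, and it reached further downstream in 347 (78.5%, 74.4 to 82.1). The 2KO peak extended 2272 bp upstream and 3497 bp downstream at the median and reached further downstream in 323 (73.1%, 68.8 to 77.0). Per gene, the 2KO edge lay further out upstream in 303 of 442 (68.6%) and downstream in 302 (68.3%), by medians of 425.5 bp (quartiles −112.5 and 1277.75) and 395.5 bp (quartiles −89.5 and 1282.75). The differences in reach were of similar size on both sides of the gene start, and both lists reached further into the gene. As with the length ratios, the limit on control width bears on these differences.

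**Figure D1:**
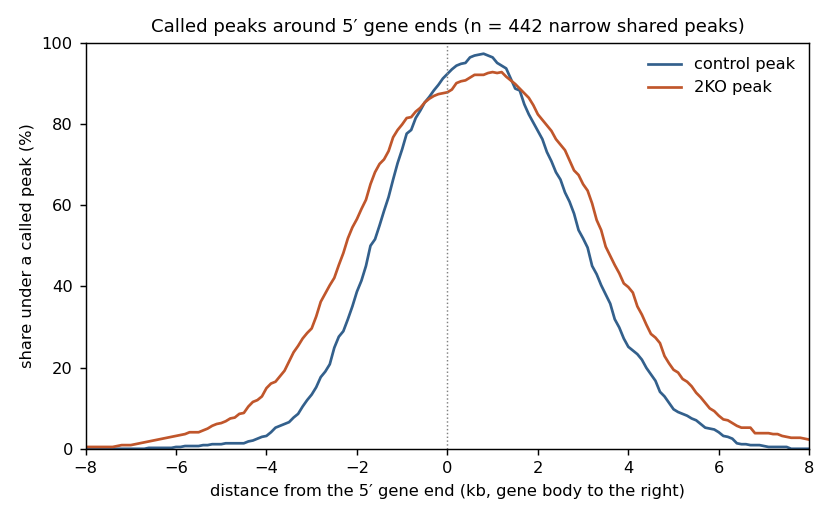
Share of 442 narrow shared peaks whose called interval covers each position (%), against the distance from the 5′ gene end in kb with the gene body to the right, for the control and the 2KO peak. The control curve is highest, at 97.3%, 800 bp inside the gene, and the 2KO curve, highest at 92.8% 1000 bp inside, is broader on both sides.

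The 704 peaks belonged to 770 genes, 3.56% of 21631 protein-coding genes. A single gene was met by 629 peaks, a pair of genes by 74 and 3 genes by 1 peak, and 10 genes held 2 such peaks each. For 51 of the 770 genes (6.62%) the whole gene lay inside the called interval, among them the small receptor genes Drd1 (4476 bp), Drd5 (3015 bp) and Adra2c (3198 bp) and the muscle determination gene Myod1 (2619 bp). These 4 were chosen after their values were seen. Genes at the shared narrow peaks had a median length of 30929 bp, against 40110 bp at control-only narrow peaks, 12569 bp at wide shared peaks and 17329 bp over all genes. Another control peak lay within 50 kb of 187 of the 704 (26.6%, 23.4 to 29.9) and of 205 of 431 wide shared peaks (47.6%, 42.9 to 52.3), and the median gap to the nearest control peak was 184094 bp and 56349 bp, respectively.

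To describe what the loss of Ring1a and Ring1b left at these places, the bases of each control peak under 2KO peaks were counted. Of the whole control list, 47.4% of peaks shared a base with a 2KO peak, and of the 1463 narrow gene-end peaks 704 did (48.1%, 45.6 to 50.7), a share the rule fixes and from which nothing is read. Among the 704, the median control peak lay entirely under a 2KO peak (quartiles 87.3% and 100%). The control interval was wholly covered in 360 (51.1%, 47.4 to 54.8) and covered by at least 90% in 500 (71.0%, 67.6 to 74.3), and it was covered by less than 50% in 29 (4.12%). Over all 1721 shared control peaks the median was 97.4%, and over the 431 wide shared gene-end peaks it was 86.5%, with 86 (20.0%, 16.5 to 24.0) wholly covered. A shorter interval can more easily lie inside another one, and the part of width in this difference was not tested.

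Whether the 2KO peak met the same gene end as the control peak was counted next. The rule sets much of this share, since it takes short peaks at a gene end that overlap a 2KO peak and that were wholly covered in 51.1%. In 684 of 704 peaks (97.2%, 95.7 to 98.2) the same gene end was met, as it was in 404 of 431 wide shared peaks (93.7%, 91.0 to 95.7). The 20 exceptions were at Epdr1, Negr1, Hpcal4 with Nt5c1a, Cops7a with Pianp, Hsd17b11, Cabp1, Adam33, Pcdh17, Fosb, Erbb4, Tmem178b, Sp6, Rnd1, Gpr176, Raet1e with E030030I06Rik, Egr2, Vipr1, Shisal2a, Ttc9 and Rictor. At Erbb4, which encodes a neuregulin receptor, the 7304-bp control peak (chromosome 1, 69102352 to 69109655) was followed by a 3819-bp 2KO peak that covered 52.3% of it and did not meet the gene end. At Egr2, a zinc finger factor of hindbrain and Schwann cells, the control peak of 3207 bp and the 2KO peak of 2533 bp differed less, and 79.0% of the control interval was covered. The least covered of all was the 1504-bp peak at Epdr1, which a 2KO peak met over 10.6% of its length. That 2KO peak, 5576 bp long, also covered the whole of the neighbouring 3307-bp peak at Sfrp4, which encodes a secreted Wnt antagonist.

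The length of the called intervals was compared in 701 regions, each formed by the overlapping peaks of both lists. In 690 of them 1 control peak faced 1 2KO peak. The control peaks ran from 1005 to 7995 bp (median 4900) and the 2KO peaks that met them from 1100 to 28689 bp (median 5653). Called bases in 2KO over those in control had a median log2 ratio of 0.26 (quartiles −0.14 and 0.59), a 1.20-fold longer 2KO interval. The 2KO bases were at least 1.5 times the control in 178 regions (25.4%), where the background over all 1676 shared regions was 19.7%, and the control bases were at least 1.5 times the 2KO in 64 (9.13%), where it was 14.7%. Over all shared regions the median log2 ratio was 0.10, and over the wide shared gene-end peaks it was −0.15, with 15 of 431 longer and 119 shorter by 1.5-fold.

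These ratios depended on the limit on control width. Among the 704, the median log2 ratio was 0.67 for control peaks under 3000 bp, 0.34 from 3000 to 5000 bp and 0.11 from 5000 to 8000 bp, where 43 peaks were longer and 46 shorter by 1.5-fold. When the limit of 8 kb was placed on the 2KO peak in place of the control peak, the median was −0.014. With the limit on the geometric mean of both lengths, it was 0.17, with 155 regions longer and 105 shorter by 1.5-fold out of 696. That limit treats both lengths alike, but the gene-end condition was still placed on the control peak, so the choice was not fully even between the lists. The direction of the length difference was therefore not independent of the rule, and a change in length between the genotypes is not claimed.

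**Figure D2:**
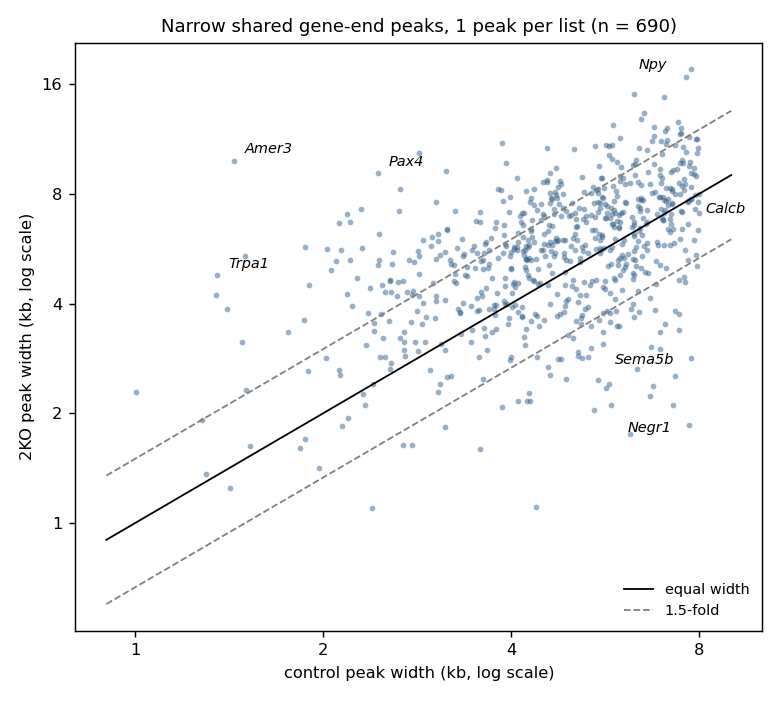
Control peak width against 2KO peak width in kb, both on log scales, for the 690 narrow shared peaks with 1 peak in each list; the solid line marks equal width and the dashed lines a 1.5-fold difference. Points lie above the line in 474 and below it in 216, and Amer3 (6.85-fold) lies furthest above it.

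At the edges, 0 of 690 pairs matched to the base. The distance between corresponding edges had a median of 714.5 bp (quartiles 239.75 and 1458.25). Both edges lay within 500 bp in 114 of 690 peaks (16.5%) and within 1000 bp in 260 (37.7%). The 2KO peak reached further at both edges in 348 (50.4%, 46.7 to 54.2), stopped short at both in 121 (17.5%) and was shifted, further at 1 edge and shorter at the other, in 221 (32.0%). The closest edges were at Col6a5, a collagen VI chain gene, where control and 2KO peaks (chromosome 9, 105959089 to 105963968 and 105959068 to 105963944) differed by 45 bp over both edges. Next came Calcb, which encodes the neuropeptide beta-CGRP (50 bp), Adora2a, an adenosine receptor gene (53 bp), Grm6, the metabotropic glutamate receptor gene of retinal ON bipolar cells (71 bp), Col9a2, a cartilage collagen gene (80 bp), and Mlkl, the effector of necroptosis (82 bp).

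The largest ratios came from control peaks of 1355 to 2847 bp. At Amer3, a member of the family of APC-binding membrane proteins, a 1439-bp control peak (chromosome 1, 34578465 to 34579903) lay within a 9858-bp 2KO peak (34573767 to 34583624), a 6.85-fold longer interval. At Pax4, a paired-box factor gene of the endocrine pancreas, the peak measured 2450 bp in control and 9121 bp in 2KO, 3.72-fold longer. At Trpa1, the irritant-sensing channel gene of sensory neurons, it measured 1355 and 4791 bp, 3.54-fold longer. The others of the 8 highest were at Kctd19 with Lrrc36 (3.64-fold), Cercam with Urm1 (3.61-fold), Zfp105 (3.23-fold), Gldn, which encodes gliomedin of the node of Ranvier (3.15-fold), and the adhesion receptor gene Adgra1 (3.14-fold). In 7 of these 8 the 2KO peak covered the whole control peak, whereas at Zfp105 it covered 28.8% and was displaced to one side.

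The smallest ratios came from control peaks of 4382 to 7765 bp. At Negr1, which encodes a neuronal adhesion molecule, a 7691-bp control peak (chromosome 3, 156558363 to 156566053) was met by a 2KO peak of 1856 bp (156558884 to 156560739), 0.241 times its length. At Epb41l4b with Frrs1l, an auxiliary subunit gene of AMPA receptors, 4382 bp stood against 1108 bp (0.253 times). At Adgrb1, an adhesion receptor gene of neurons and phagocytes, 6737 bp stood against 2383 bp (0.354 times), and at Sema5b, a semaphorin gene of axon guidance, 7765 bp against 2829 bp (0.364 times). The ratios were 0.283 at Ank, a pyrophosphate transport gene, 0.289 at Hpcal4 with Nt5c1a, 0.335 at Ccdc151 with Rgl3 and 0.345 at Cops7a with Pianp. In each of these 8 regions the 2KO peak lay inside the control peak.

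In 11 regions more than 1 peak of a list took part. The longest 2KO peak that met a narrow shared control peak, 28689 bp, ran over Xkr6 and joined a 6948-bp control peak to another one, and a 24163-bp 2KO peak over Mast1 and Rtbdn joined 3 control peaks. At Kcnj10, the gene of a glial potassium channel, the 4993-bp control peak and its neighbour held 13380 called bases and the 2KO peak across them 16191, a ratio of 1.21. At Slc17a7, which encodes a vesicular glutamate transporter, the 7277-bp control peak lay in a region of 20535 control and 19407 2KO bases, a ratio of 0.945. In these regions the ratio was taken over the whole region and not over the single control peak.

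To describe the genes, 28 lists of gene families and cell types were set beside the peaks, and 263 of the 770 genes (34.2%) were in a list. The lists were made with earlier results of these data known, and the list of neuropeptides and peptide hormones was added after the genes at the peaks had been seen. The transmitter receptor list was corrected then too, since it had missed Adra2c. Of all genes, 3.56% were at a narrow shared peak, and of the 2180 genes at any control peak 35.3% were. Of the same 2180 genes, 802 were at narrow control-only, 529 at wide shared and 133 at wide control-only peaks. A gene with peaks of 2 classes counts in both. These numbers over all genes are the background for the counts of each class given below for single lists. Genes of secreted neuropeptides, transmitter receptors and tight or gap junction proteins had larger shares of their marked members there, and genes of developmental transcription factors had smaller ones. No test was made of these shares. Beside the counts past 1.5-fold given below for single lists stand the shares over all narrow shared regions, 25.4% longer and 9.13% shorter. Over all shared regions they were 19.7% and 14.7%. Where a list is given with its number of peaks at least 90% covered, the share over all 704 narrow shared peaks was 71.0%. The counts of single lists are descriptions.

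**Figure D3:**
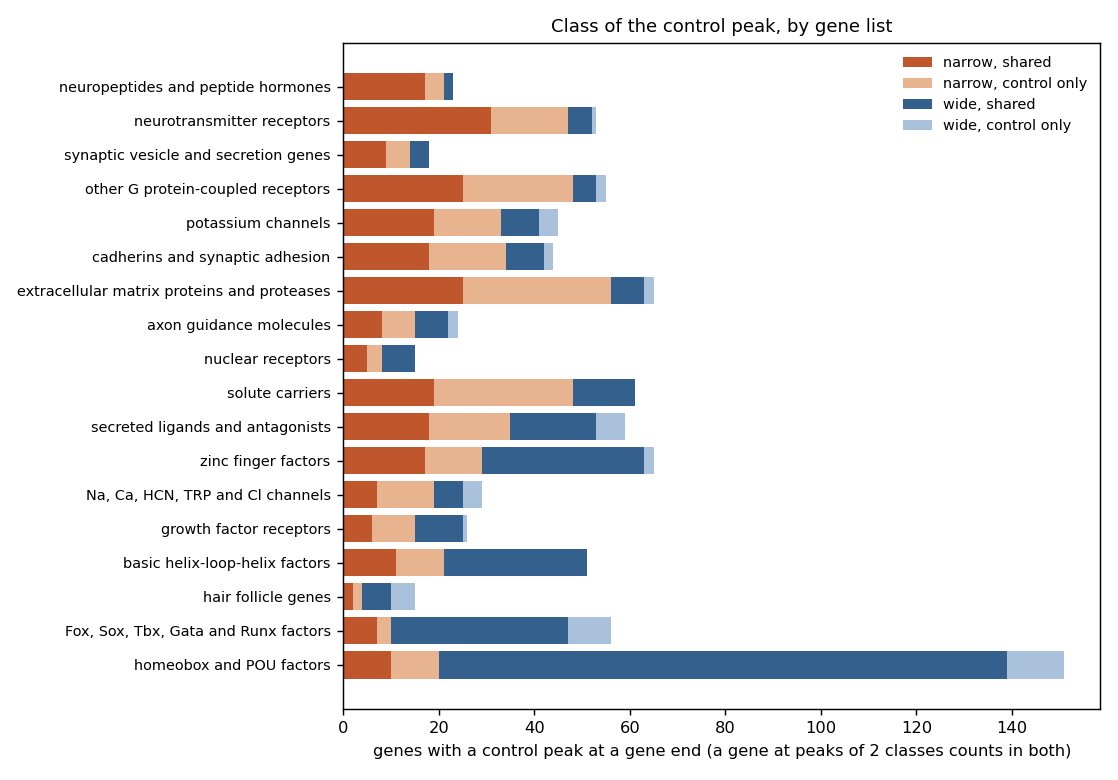
Number of genes of each list with a control peak at a gene end, split by whether the peak was narrow or wide and shared with the 2KO list or in the control list only; lists with at least 15 such genes are shown and a gene with peaks of 2 classes counts in both. Narrow shared peaks hold 17 of 23 marked neuropeptide genes and 31 of 51 marked transmitter receptor genes, but 10 of 149 marked homeobox and POU genes.

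Among genes of ligands, 17 of 63 neuropeptide and peptide hormone genes were at a narrow shared peak, 4 at a narrow control-only peak and 2 at a wide shared peak. The 16 peaks had a median log2 ratio of 0.29, with 4 longer and 0 shorter by 1.5-fold, and covered intervals of 65.3% to 100%. The 4 longer of 16 are near the 25.4% of all narrow shared regions. At Npy, which encodes neuropeptide Y, a 7607-bp control peak (chromosome 6, 49818735 to 49826341) lay within a 16755-bp 2KO peak (2.20-fold). At Calcb and at Cga, the common alpha subunit of pituitary glycoprotein hormones, lengths hardly differed, with 7868 and 7918 bp at Calcb and 7681 and 7644 bp at Cga. At Ucn, a urocortin gene that shared its peak with Mpv17 and Trim54, the interval was 7492 bp in control and 12087 bp in 2KO. The shortest relative to control was the peak shared by the neighbours Avp and Oxt, the vasopressin and oxytocin genes, with 6924 bp in control and 5108 bp in 2KO (0.738 times). Of genes of other secreted ligands and their antagonists, 18 of 165 were at narrow shared peaks, 17 at narrow control-only peaks and 18 at wide shared peaks. Lengths at the Bmp antagonist gene Grem1 were 7834 and 9421 bp (1.20-fold). They were 7214 and 7033 bp at Fgf15 (0.975 times) and 6917 and 8983 bp at its neighbour Fgf3 (1.30-fold), both fibroblast growth factor genes. At Chrdl2, which encodes a chordin-like Bmp antagonist, they were 6610 and 5845 bp (0.884 times).

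Among receptor genes, 31 of 128 transmitter receptor genes were at narrow shared peaks, beside 16 at narrow control-only and 5 at wide shared peaks. Their 30 peaks had a median log2 ratio of 0.23, with 5 longer and 1 shorter by 1.5-fold, and 24 of the 30 were at least 90% covered. Among the widest were those at the alpha-adrenergic receptor genes Adra1d (7916 bp in control and 11338 bp in 2KO, 1.43-fold) and Adra2c (7751 and 7720 bp). The nicotinic receptor genes Chrna3 and Chrnb4 shared a 5055-bp control peak within a 7070-bp 2KO peak (1.40-fold). The neighbouring gene Chrna5 had its own 5015-bp control peak, of which a 6063-bp 2KO peak displaced to one side covered 18.2%. Of the other G protein-coupled receptor genes 25 of 202 were at narrow shared peaks and 23 at narrow control-only peaks, with a median log2 ratio of 0.31 and 9 longer and 2 shorter by 1.5-fold. At Calcr, the calcitonin receptor gene, lengths were 7596 and 8530 bp (1.12-fold), at Galr1, a galanin receptor gene, 7079 and 10964 bp (1.55-fold), and at Sstr1, a somatostatin receptor gene, 6829 and 5239 bp (0.767 times). Receptors for several of the marked peptides were among them, a choice made after the values were seen. At Avpr1a, a vasopressin receptor gene, 4620 bp stood against 8024 bp (1.74-fold). At Oxtr, the oxytocin receptor gene, 4243 bp stood against 5268 bp (1.24-fold), and at Npy5r, a neuropeptide Y receptor gene, 5276 bp against 4226 bp (0.801 times). Of genes of growth factor receptors 6 of 76 were at narrow shared peaks, and at the neurotrophin receptor gene Ntrk2 the lengths were 7757 and 8359 bp (1.08-fold).

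Among channel genes, 19 of 93 potassium channel genes were at narrow shared peaks and 14 at narrow control-only peaks. Their 21 peaks had a median log2 ratio of 0.28, 4 were longer and 1 shorter by 1.5-fold, and 19 were at least 90% covered. At the widest, lengths in control and 2KO were 7552 and 8777 bp at the tandem-pore channel gene Kcnk12, 7184 and 6809 bp at the inward rectifier gene Kcnj5, 7129 and 7429 bp at Kcna6 and 6965 and 10285 bp at Kcnh5, both genes of voltage-gated channels. The 1 shorter peak was at Kcnq3, which encodes a subunit of the neuronal M channel, with 4269 and 2272 bp (0.532 times). Sodium, calcium, HCN, TRP and chloride channel genes were at narrow shared peaks in 7 of 90 and at narrow control-only peaks in 12, and the widest of these peaks was at the ryanodine receptor gene Ryr3 (5390 and 6366 bp, 1.18-fold). Of solute carrier genes 19 of 385 were at narrow shared peaks and 29 at narrow control-only peaks. At Slc5a8, a monocarboxylate transporter gene, lengths were 7179 and 5782 bp (0.805 times), and at the sodium-glucose transporter gene Slc5a1 they were 5847 and 6500 bp (1.11-fold).

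Among genes of synapses and cell contacts, 9 of 77 synaptic vesicle and secretion genes were at narrow shared peaks and 5 at narrow control-only peaks. Lengths were 7691 and 9503 bp at the active zone gene Rims4 (1.24-fold) and 6258 and 5312 bp at the synapsin gene Syn2 (0.849 times). Of 180 cadherin, protocadherin and synaptic adhesion genes 18 were at narrow shared peaks, with a median log2 ratio of 0.43 and 5 longer and 2 shorter by 1.5-fold. At Cdh2, the N-cadherin gene, a 7709-bp control peak lay within an 11449-bp 2KO peak (1.49-fold), at Pcdh15, a protocadherin gene of the inner ear, lengths were 7527 and 10729 bp (1.43-fold), and at Pcdh17 they were 7413 and 3383 bp (0.456 times). Of axon guidance genes 8 of 74 were at narrow shared peaks, with 0 longer and 1 shorter by 1.5-fold. The netrin receptor gene Unc5c had 5972 bp in control and 6677 bp in 2KO (1.12-fold). Of 45 claudin and connexin genes 6 were at narrow shared peaks, 4 at narrow control-only and 0 at wide shared peaks. Cldn3, a tight junction gene, had 5784 bp in control and 2111 bp in 2KO (0.365 times), and the connexin gene Gjd2 had 5543 and 7319 bp (1.32-fold).

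Extracellular matrix and protease genes were at narrow shared peaks in 25 of 213 and at narrow control-only peaks in 31. Their median log2 ratio was −0.045, below the 0.26 of all narrow shared peaks, with 5 longer and 2 shorter by 1.5-fold, and 14 of 25 were at least 90% covered. Over all narrow shared regions 25.4% were longer and 9.13% shorter. The control peaks of this list were wider, with a median of 5468 bp against 4900 bp. The ratio was 0.11 for control peaks of 5000 to 8000 bp. Lists of at least 5 peaks with still wider control peaks differed in their ratios. Neuropeptide genes had 0.29 at a median width of 6926 bp, and cadherin and synaptic adhesion genes 0.43 at 5840.5 bp. Growth factor receptor genes had 0.11 at 6557.5 bp, and nuclear receptor genes −0.022 at 5979 bp. The part of width was not tested. Medians were also low for nuclear receptor genes (−0.022) and homeobox and POU genes (0.076). At Vwc2, which encodes a secreted Bmp-binding protein, lengths were 7891 and 5430 bp (0.688 times). At Acan, the aggrecan gene of cartilage, they were 7257 and 6422 bp (0.885 times), at Col26a1 7012 and 6773 bp (0.966 times) and at the protease gene Adam33 6923 and 2996 bp (0.433 times). No list was tested against the others.

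**Figure D4:**
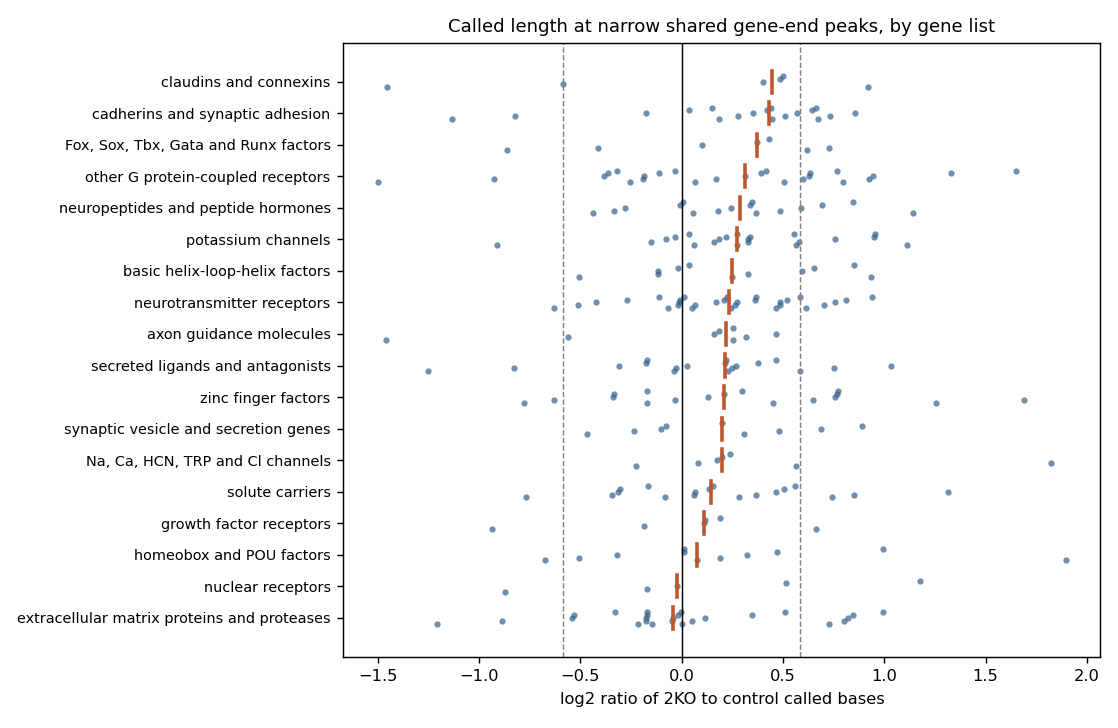
Log2 ratio of 2KO to control called bases at narrow shared peaks (points, 1 per peak) by gene list, with the median of each list (bar) and dashed lines at 1.5-fold. Lists with at least 5 peaks are shown, and their medians run from 0.44 for claudins and connexins to −0.045 for extracellular matrix genes, and the points of most lists spread to both sides of 0.

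Homeobox, basic helix-loop-helix, Fox, Sox and zinc finger genes with a control peak were mostly at wide shared peaks. Of 149 homeobox and POU genes at a control peak, 10 were at narrow shared peaks (6.71%), 10 at narrow control-only peaks and 119 at wide shared peaks. Their 11 narrow shared peaks had a median log2 ratio of 0.076 and a median coverage of 94.6%. At Pou3f4, a POU factor gene of brain and inner ear, the lengths were 7562 and 4743 bp (0.627 times), at Pax8, of thyroid and kidney, 7016 and 7079 bp, and at Vsx1, of the retina, 6623 and 9163 bp (1.38-fold). The intestinal homeobox gene Cdx1, which shared its peak with Gm52351, had 7299 and 5857 bp (0.802 times). Of 49 basic helix-loop-helix genes at a control peak, 11 were at narrow shared peaks and 30 at wide shared ones. Hes5, a Notch target gene that shared its peak with Pank4, had 7678 bp in control and 7580 bp in 2KO, Msc had 7040 and 7224 bp, the somite gene Tcf15 had 6802 and 8076 bp (1.19-fold), and the neuronal gene Npas1 had 6773 and 12193 bp (1.80-fold). Of 53 marked Fox, Sox, Tbx, Gata and Runx genes 7 were at narrow shared peaks, among them Foxi2 (5503 and 7112 bp, 1.29-fold) and Tbx21, a T-helper cell factor gene (5414 and 8325 bp, 1.54-fold). Of 59 marked zinc finger genes 17 were, with Sall2 at 7615 and 10404 bp (1.37-fold), Zeb1, a factor of epithelial to mesenchymal transition, at 7452 and 11690 bp (1.57-fold), Zfpm2, a Gata cofactor gene, at 7180 and 8296 bp (1.16-fold), and the lymphoid gene Ikzf3 at 7984 and 7081 bp (0.887 times). Of 15 marked nuclear receptor genes 5 were. Rxrg, a retinoid X receptor gene, had 6311 bp in control and 9024 bp in 2KO (1.43-fold), and Pparg, the regulator of fat cell formation, had 5979 and 5319 bp (0.890 times).

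Lists of skin cell genes were counted in the same way. Of 186 keratin and epidermal differentiation genes, 19 basal progenitor genes, 18 dermal fibroblast genes and 15 immune genes, 0 were at a narrow shared peak. Over all genes the share was 3.56%, so nothing is read from a 0 in the lists of 15 to 19 genes. At any control peak were 7 of 186 keratin and differentiation genes, 0 of 19 basal progenitor genes, 10 of 18 fibroblast genes and 2 of 15 immune genes. Over all protein-coding genes the number was 2180 of 21631, and no list was tested against it. Of 21 Merkel cell genes, 9 were at wide shared peaks and 3 at narrow shared peaks, Nefm (6288 bp in control and 4784 bp in 2KO, 0.761 times), Tubb3 (4232 and 8143 bp, 1.92-fold) and Syt1 (2377 and 4410 bp, 1.86-fold). The first encodes a neurofilament chain, the second a neuronal tubulin and the third a calcium sensor of synaptic vesicles, and Tubb3 shared its peak with Mc1r, the melanocortin receptor gene. Of 31 hair follicle genes, 6 were at wide shared peaks, 5 at wide control-only peaks and 2 at narrow shared peaks, Cd34 (4778 and 7504 bp, 1.57-fold) and Foxi3 (4620 and 2543 bp, 0.550 times). The neural crest factor gene Sox10 was the 1 gene of the melanocyte list (4837 and 8002 bp, 1.65-fold), and Sox18 the 1 gene of the endothelial list (6934 and 9348 bp, 1.35-fold). Cdkn2c, a cell cycle inhibitor gene, had 6531 and 5751 bp (0.881 times), and Cbx8, which encodes a PRC1 subunit, had 4016 and 4273 bp (1.06-fold).

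The promoters under the peaks were compared by sequence, which the rule did not use. At 451 genes whose start site lay under a narrow shared peak, the ratio of observed to expected CG had a median of 0.62 (quartiles 0.44 and 0.79), the GC content a median of 61.7% and the number of CG a median of 17. The ratio was 0.6 or more in 245 of the 451 (54.3%). At 390 genes under narrow control-only peaks the median ratio was 0.73 (quartiles 0.54 and 0.88) with 66.9% at 0.6 or more, and at 333 genes under wide shared peaks it was 0.75 (quartiles 0.57 and 0.86) with 70.9%. All 17274 promoters of the table had a median of 0.62 with broader quartiles of 0.24 and 0.85. The shared narrow peaks also had the lower median within classes of control width, with 0.62 against 0.65 for control-only peaks under 3000 bp, 0.60 against 0.73 from 3000 to 5000 bp and 0.65 against 0.79 from 5000 to 8000 bp. No test was made between these classes, and promoters of neighbouring or related genes are not independent.

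**Figure D5:**
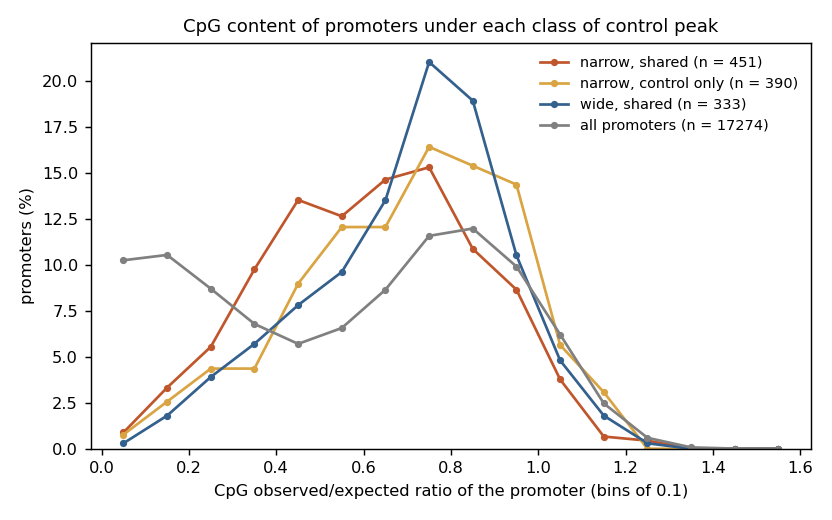
Share of promoters (%) in each bin of 0.1 of the ratio of observed to expected CG, for promoters under narrow shared, narrow control-only and wide shared control peaks and for all promoters. Narrow shared peaks have a larger share than the other peak classes between 0.3 and 0.7 and a smaller one from 0.7 to 1.2.

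The median ratio varied between gene lists. The 13 neuropeptide and peptide hormone promoters under narrow shared peaks had a median of 0.38 (quartiles 0.29 and 0.69) and the 6 homeobox and POU promoters 0.42 (0.32 and 0.56). The 15 transmitter receptor promoters had 0.72 (0.41 and 0.81) and the 10 promoters of secreted ligands and antagonists 0.77 (0.65 and 0.82). The lists are small, the neuropeptide list was added after the genes had been seen, and no test was made between lists. The letters TATAAA, searched on both strands with a promoter counted once, were in 40 of the 451 promoters (8.87%), in 26 of 390 under narrow control-only peaks (6.67%), in 35 of 333 under wide shared peaks (10.5%) and in 13.2% of all 17274 promoters. A match of these letters is a description and not a site.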

How the data were processed

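H3K27me3 was measured by chromatin immunoprecipitation and sequencing. Per the submitters' processing notes, Bowtie2 2.3.3.1, SAMtools 1.9 and build mm10 were used. From each genotype the authors deposited a single peak list with a start and an end position and no score or depth. The sources used here do not say which peak caller and threshold served, or whether input was used or the 2 libraries per genotype were pooled. A stricter threshold in either list would change which peaks are shared.

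Positions are printed 1-based, from 0-based starts in the lists. Overlaps of at least 1 bp, merged regions and called bases were computed with pandas 2.3.3 and numpy 2.4.6 (Python 3.11.15), and bedtools also gave 704 peaks. In a test on simulated data built from the control list, all 1338 kept peaks and all 417 peaks made 2-fold wider were found, with 0 wrong. The simulated peaks were isolated control peaks, copied unchanged or widened evenly, so working code had to find them. The test held no shifted, split or joined peaks, and it checks the code only, not the peak lists. Genes (21631) came from a RefSeq table of GRCm38.p6 and strands and promoters from its promoter table, which held 17274 of them and 586 of the 770 genes at the peaks. Genes without an entry stayed out of the results on strand and sequence.

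The peaks and the gene lists were chosen with earlier results of these data known. Named were the 8 highest and 8 lowest ratios and the 6 closest edge pairs among regions with 1 peak per list, up to 4 genes per list at the widest peaks, Ring1, Rnf2 and Eed, and the 3 peaks on each side of the width limit. A few genes that the rule names are not reported here. Any other gene named was chosen after their values were seen. Alternatives changed the width limit, window, overlap, peak numbers and merging. Figures were drawn with matplotlib 3.10.9.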

Additional observations from a re-analysis of the deposited data

How the results depend on the processing

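Of 52 values under other settings, 37 stayed within the 95% interval of the value reported or, for the number of peaks, within 1.5 times. With a width limit of 5 kb the rule gave 360 peaks in place of 704, 39.8% of narrow gene-end peaks were shared in place of 48.1%, and the median log2 length ratio (2KO over control) was 0.45 in place of 0.26. With the limit on the 2KO peak, that median was −0.014, the median covered share 91.6%, the share meeting the same gene end 94.2% in place of 97.2%, and the median CpG ratio 0.66 in place of 0.62; the share of narrow peaks that were shared has no value there. With the widest peaks taken in equal numbers from each list, the shared fraction was 57.7%, the median log2 ratio 0.18 and the median covered share 98.9%. With no window at gene ends, the shared fraction was 53.0% and the same-end share 92.2%, and with a window of 5 kb the latter was 99.6%. Requiring 50% of each peak to be covered gave a shared fraction of 42.1%. A limit on the geometric mean width, chosen after seeing the data, gave a median log2 ratio of 0.17. The share of peaks at a 5′ end stayed within its interval under all 8 alternatives run for it, between 92.1% and 95.1%. The limit on the 2KO peak selects short 2KO peaks, as the limit on the control peak selects short control peaks. With it the median log2 ratio had a 95% interval of −0.075 to 0.045, which holds both signs. Intervals of medians were taken from the ranked values over regions, peaks or promoters, here 726 regions. They do not measure the spread between replicates, so the sign of a genotype difference is not settled under either limit. The cause of the shifts was not tested. No paired analysis was possible because a genotype has 1 peak list and no value per replicate, and leaving out a replicate was not possible for the same reason. Depth is unknown, so a place without a called peak is not a place without the mark.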
